A study of Caenorhabditis elegans with 24 samples.

Results

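Heat-shocked *hsf-1(sy441)* animals were compared with heat-shocked N2 animals, so that the expression reached after heat-shock could be set side by side with and without a full-length HSF-1. The comparison used 6 of the 24 RNA-sequencing libraries of the study, 3 biological replicates of each strain, and it tested the 12914 of 46934 genes that had at least 10 counts in at least 3 of those 6 libraries. N2 is the wild-type C. elegans strain, and the *hsf-1(sy441)* mutant makes an HSF-1 protein that lacks its C-terminal part. Each library came from about 800 whole animals at day 1 of adulthood that had been grown at 20°C on HT115 bacteria carrying pL4440, heated for 2 h at 34°C and left to recover for 1 h at 20°C. The other 18 libraries were untreated N2 and *hsf-1(sy441)* animals and both treatments of a pair of lines with neuronal over-expression of *hsf-1*, either full-length (*hsf-1FL*) or without the C-terminal part (*hsf-1CTD*). All strains derived from N2. Groups are written below with HS for heat-shocked and UT for untreated.

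HSF-1 is the transcription factor of the heat-shock response: upon heat it binds heat-shock elements in the promoters of chaperone genes and raises their transcription, while chaperones such as HSP-90 hold it in check without stress. Its C-terminal part carries the activation domain that is needed for strong induction. In C. elegans the factor also acts without stress, in development, in lifespan and in the upkeep of the actin cytoskeleton.

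The 6 libraries held 12809443 to 18035218 counts on genes, with a median of 15047805.5. Levels are given as CPM (counts per 1e6 counts of the library) scaled by the trimmed mean of M-values, and 3 counts, the level that a library with no count still allows, came to 0.177 CPM on average in N2 HS. Replicates correlated with a Spearman coefficient of 0.935 to 0.971 over the tested genes in N2 HS and of 0.901 to 0.981 in *hsf-1(sy441)* HS, where replicate 3 stood apart from the other two. Of 31 markers of body wall muscle, intestine, epidermis, neurons and pharynx, 30 were among the tested genes, and their median log2(fold-change) between the strains was 1.13, 0.30, -0.15, -0.73 and -0.18, respectively. Without N2 HS replicate 1 the medians of epidermis, neurons and pharynx were 0.63, -0.16 and 0.70. As these were whole animals, fewer cells of a type and less RNA per cell cannot be told apart. *hsp-16.2*, a small heat-shock gene that is nearly silent without stress, was at 131 CPM or more in every heat-shocked library of the pair of strains and at 1.96 CPM or less in their untreated libraries.

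With edgeR's quasi-likelihood test and Benjamini-Hochberg adjustment at an adjusted P-value under 0.01, 182 genes were differentially expressed genes (DEGs), which was 1.41% of those tested. The spread of each gene was estimated from all 24 libraries: with the 12 heat-shocked libraries alone 30 genes were called, and with the 6 compared libraries alone 2 were. DESeq2 called 733 genes (5.68%), among them all 182. Below, DEG, called, rose and fell refer to edgeR over 24 libraries at this threshold unless another tool is named. Of these, 134 were higher in *hsf-1(sy441)* HS (1.04% of the genes tested) and 48 were lower (0.372%). The rises were larger than the falls: the median log2(fold-change) was 1.79 over the higher genes and -0.97 over the lower genes, against 0.0095 over all genes tested. At least a 2-fold change was reached by 113 of the higher and 23 of the lower genes. The median level in N2 HS was 38.8 CPM over the lower and 4.58 CPM over the higher genes. The N2 HS level enters the call, and a call as higher favours genes that are low there. These medians are therefore not an independent trait of the genes. In none of the 182 DEGs did the libraries of the strains overlap, while over all genes tested the 3 *hsf-1(sy441)* HS libraries lay above the 3 of N2 HS in 11.2% and below them in 7.19%. They also lay above all 9 other heat-shocked libraries for 117 of the 134 higher genes and below all 9 for 46 of the 48 lower genes. These 9 include the 3 of N2 HS that made the calls. Of the 1448 genes with all *hsf-1(sy441)* HS libraries above N2 HS, called or not, 899 lay above all 9 (6.96% of genes tested). Of the 928 genes below N2 HS, 614 lay below all 9 (4.75%). At an unadjusted p under 0.05 there were 3011 genes, or 23.3%.

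The number of DEGs depended on single libraries. Without *hsf-1(sy441)* HS replicate 2, replicate 3, N2 HS replicate 2 or N2 HS replicate 3, it was 61, 93, 77 and 81, respectively. Without *hsf-1(sy441)* HS replicate 1 it was 192 and without N2 HS replicate 1 it was 203, of which 95 were lower. A set of 41 genes, 33 higher and 8 lower, was called whichever of the 6 libraries was left out, where a gene that then missed the count minimum counted as not called. Of the DEGs named below, these were *C38D9.2*, *F15D4.5*, *F15D4.6*, *C55C3.3*, *scrm-4*, *F58D5.5*, *pxl-1*, *abhd-11.2*, *nsph-1.2* and *fat-1* among the higher and *fbxa-170*, *scp-1*, *Y71F9AL.8*, *ttll-12* and *F57A10.4* among the lower genes, and every other named DEG lost its call without at least 1 library. Of the 3 *hsf-1(sy441)* HS libraries, replicate 3 was the highest for 68 of the 134 higher genes and the lowest for 27 of the 48 lower genes.

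The untreated libraries of the same strains were other samples than the 6 compared, although all 24 libraries shared 1 estimate of the spread per gene in the fit that called these genes. In the untreated libraries, 133 of the 134 higher and 43 of the 48 lower DEGs had the same sign of *hsf-1(sy441)* against N2, where 77.4% of all genes tested had the same sign in both treatments. The untreated comparison called 68 of the higher and 9 of the lower genes as well, while it called 0.891% of all genes tested. The median untreated log2(fold-change) was 1.42 over the higher and -0.56 over the lower genes. For the difference between the heat-shocked and the untreated comparison, edgeR's quasi-likelihood test called no gene at an adjusted P-value under 0.01, while 469 genes (3.63%) had an unadjusted p under 0.05. The gene *hsp-70* (-4.01 on the log2 scale) and the pseudogene WBGene00012618 (-9.20) had the smallest adjusted P-value, 0.0256. Untreated N2 had no count of that pseudogene, so the size of -9.20 depends on the prior count.

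**Figure D1:**
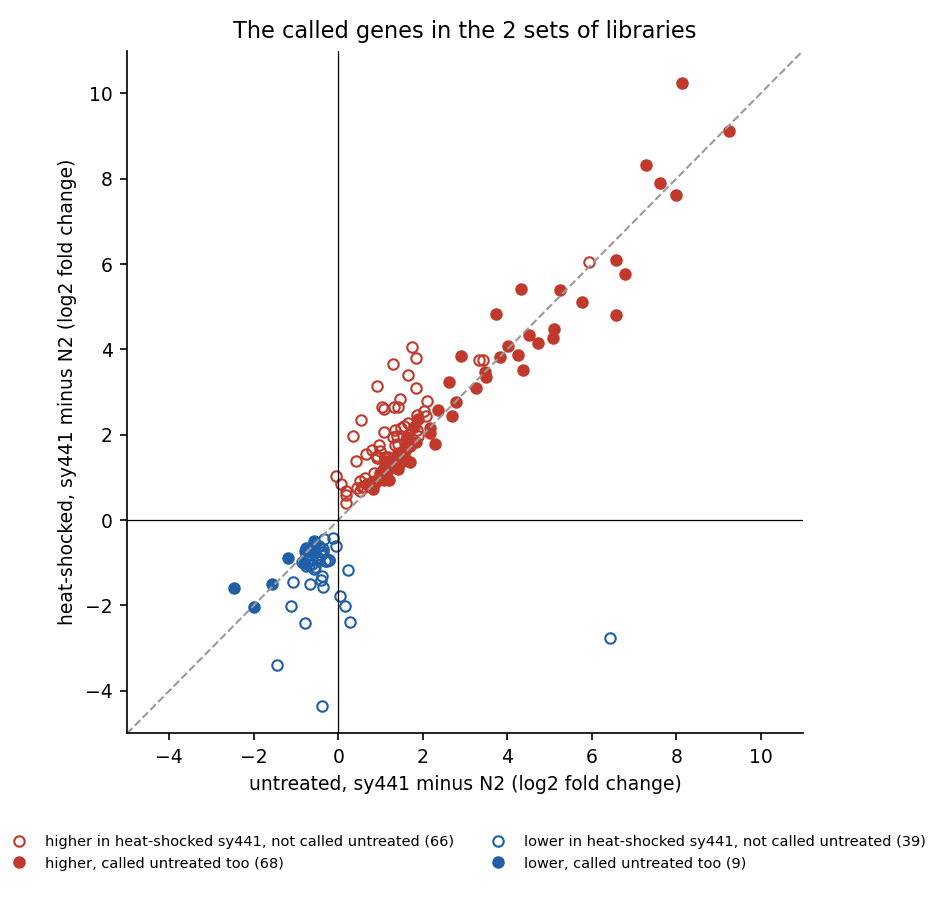
Each of the 182 DEGs between *hsf-1(sy441)* HS and N2 HS is a point, with the log2(fold-change) of *hsf-1(sy441)* against N2 in untreated libraries on the x axis and in heat-shocked libraries on the y axis. Filled points (68 higher, 9 lower) were called in untreated libraries too, the dashed line marks equal values, and the blue point at the far right is the pseudogene WBGene00012618. The x value of that pseudogene depends on the prior count, as untreated N2 had no count of it.

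The *hsf-1* transcript itself (WBGene00002004, chromosome I from 11953507 to 11963085, build WBcel235) was at 92.8, 85.5 and 85.8 CPM in *hsf-1(sy441)* HS and at 97.2, 125 and 162 CPM in N2 HS (log2(fold-change) -0.54, SE 0.20, adjusted P-value 0.11). The groups did not overlap, and the difference did not pass the test. In untreated libraries it was at -0.83 on the log2 scale (adjusted P-value 0.0232). The allele shortens the protein, so the level of the transcript does not check the labels. Among its partners, *ddl-1*, a component of a complex that holds HSF-1, was at 10.7, 7.88 and 7.80 CPM against 13.9, 16.18 and 19.04 CPM (log2(fold-change) -0.89, SE 0.20, adjusted P-value 0.015), and *hsb-1*, the HSF-1 binding protein, was at -0.07 on the log2 scale (adjusted P-value 0.778). No gene of that list of 6 was called by edgeR, and DESeq2 called *ddl-1*. At an unadjusted p under 0.05, 3 of the 6 were lower, against 9.45% of all genes tested. *ddl-1* and *hsb-1* were named after their values were seen.

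The clearest group among the lower genes was the cytosolic chaperone machinery that works around HSP-90. The gene *hsp-90* (WBGene00000915, chromosome V from 14684918 to 14688545) was at 2784, 2837 and 2757 CPM in *hsf-1(sy441)* HS and at 5514, 7295 and 5654 CPM in N2 HS. The mutant libraries lay within a narrow band below every N2 library (log2(fold-change) -1.14, SE 0.19, adjusted P-value 0.00188). They were also below the 9 other heat-shocked libraries, where *hsf-1FL* HS had 7285, 7152 and 5486 CPM and *hsf-1CTD* HS had 6527, 6768 and 5314 CPM. In untreated libraries *hsp-90* was at 2098, 2488 and 2001 CPM in *hsf-1(sy441)* and at 2320.1, 3792 and 3665 CPM in N2, a log2(fold-change) of -0.57.

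The gene *sti-1* (WBGene00019983, chromosome V from 773518 to 774775), whose product is the Hop co-chaperone that links Hsp70 and Hsp90, was at 115.0, 106 and 116 CPM against 179.8, 308 and 240.1 CPM (log2(fold-change) -1.11, SE 0.18, adjusted P-value 0.00149). *dnj-13* (WBGene00001031, chromosome II from 11545701 to 11547360), a DnaJ-type partner of Hsp70, was at 209, 197 and 169 CPM against 231, 491 and 487 CPM (log2(fold-change) -1.07, SE 0.19, adjusted P-value 0.00361). In both genes N2 HS replicate 1 was the lowest of the N2 libraries and still above all mutant ones. Of the 16 members of the list of cytosolic Hsp70, Hsp90 and co-chaperones, these 3 fell, none rose, and all 16 had values below 0, with a median log2(fold-change) of -0.53 against 0.0095 over all genes. One of the 16, *aha-1*, codes for a transcription factor and not for a chaperone.

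At an adjusted P-value under 0.05, 7 of the 16 were lower (1.92% of all genes tested). The further ones, named after their values were seen, were *bag-1*, a nucleotide exchange factor of Hsp70, at -0.88 (adjusted P-value 0.0191), *hip-1*, the Hsp70-interacting protein, at -0.61 (adjusted P-value 0.0112), the Hsp90 activator *ahsa-1* at -0.67 (adjusted P-value 0.0444) and the DnaJ gene *dnj-12* at -0.49 (adjusted P-value 0.0458). The constitutive Hsp70 gene *hsp-1* was at 3683, 3617 and 3820.0 CPM against 3898, 6291 and 5779.9 CPM (log2(fold-change) -0.52, SE 0.18, adjusted P-value 0.0921). The groups did not overlap, without a call. The median of the list stayed between -0.69 and -0.37 when each library was left out in turn, with 6 members lower without N2 HS replicate 1 and none without *hsf-1(sy441)* HS replicate 2 or N2 HS replicate 2.

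Other lists of protein folding and turnover had smaller medians. All 8 cct genes, subunits of the chaperonin that folds actin and tubulin, had values below 0 with a median of -0.39. None was called by edgeR, 6 had an unadjusted p under 0.05 in the lower direction (9.45% of all genes tested), and *cct-5* (-0.55 (adjusted P-value 0.0397)) was called by DESeq2. Of 33 proteasome subunit genes, 31 had values below 0 with a median of -0.21, 9 were lower at an unadjusted p under 0.05, and neither edgeR nor DESeq2 called any. The 29 dnj genes, which code for DnaJ-type partners of Hsp70, had a median of -0.084 with 11 above 0, and without *hsf-1(sy441)* HS replicate 3 a median of 0.0071 with 15 above 0. Of these, edgeR called *dnj-13* and DESeq2 called *dnj-13* and *dnj-26* as lower. The gene *unc-45*, which codes for the myosin chaperone that works with HSP-90 and was named after its values were seen, was at 94.4, 93.2 and 98.5 CPM against 138, 117 and 127 CPM (log2(fold-change) -0.42, SE 0.07, adjusted P-value 0.00329). Its untreated levels were 89.98, 93.9 and 91.7 CPM in *hsf-1(sy441)* and 97.3, 97.5 and 106.6 CPM in N2.

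None of the classical inducible genes was a DEG. *hsp-16.2* was at 306, 411 and 131 CPM in *hsf-1(sy441)* HS and at 703, 824 and 434 CPM in N2 HS (log2(fold-change) -1.21, SE 0.40, adjusted P-value 0.074), and *hsp-16.41* was at 458, 623 and 185 CPM against 1044, 1042 and 607 CPM (log2(fold-change) -1.09, SE 0.44, adjusted P-value 0.14). In *hsp-16.2* each mutant library lay below each N2 library, whereas in *hsp-16.41* the mutant replicate 2 lay above N2 replicate 3. Neither passed the test. The inducible Hsp70 gene *hsp-70* was at 743, 1069 and 449 CPM against 662, 1496 and 837 CPM (log2(fold-change) -0.41, SE 0.36, adjusted P-value 0.523), and the groups overlapped. Untreated, *hsp-70* was at 6.98, 6.53 and 10.6 CPM in *hsf-1(sy441)* and at 0.409, 0.397 and 1.17 CPM in N2. That log2(fold-change) was 3.60 (adjusted P-value 4.53e-04 by edgeR). The untreated median over the 5 tested genes of the list was 3.39, where no N2 library exceeded 1.17 CPM.

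The paralogs *F44E5.4* and *F44E5.5*, also inducible Hsp70 genes, went the other way without a call. *F44E5.4* was at 31.2, 35.6 and 123.1 CPM against 3.32, 30.1 and 50.2 CPM (log2(fold-change) 1.18, SE 0.90, adjusted P-value 0.454), and *F44E5.5* had a log2(fold-change) of 1.15 (adjusted P-value 0.481) with the highest level in *hsf-1(sy441)* HS replicate 3. Without that library *F44E5.5* was at -0.07. These are near-identical copies, as are the *hsp-16.1* and *hsp-16.48* genes, which did not reach the count minimum, so 5 of the 9 genes of the list were tested. How reads shared by such copies were counted is not given in the sources used here. None of the 5 was a DEG or called by DESeq2, while *hsp-16.2* passed in edgeR with surrogate variables. At an unadjusted p under 0.05, 2 of the 5 were lower, against 9.45% of all genes tested.

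Among the other small heat-shock genes, *hsp-43* rose and no other of the 9 tested passed. *hsp-43* (WBGene00002024, chromosome X from 6233151 to 6235543) was at 244, 202 and 139.9 CPM in *hsf-1(sy441)* HS and at 68.2, 102 and 63.3 CPM in N2 HS (log2(fold-change) 1.33, SE 0.26, adjusted P-value 0.00668). The order was the same without heat, at 196, 133 and 116 CPM against 39.7, 73.0 and 47.7 CPM. Of the other members, named after their values were seen, *hsp-12.6* was at -1.65 (adjusted P-value 0.258), *hsp-17* at -1.04 (adjusted P-value 0.363) and *sip-1*, an embryonic small heat-shock gene, at -0.52 (adjusted P-value 0.179) on the log2 scale.

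**Figure D2:**
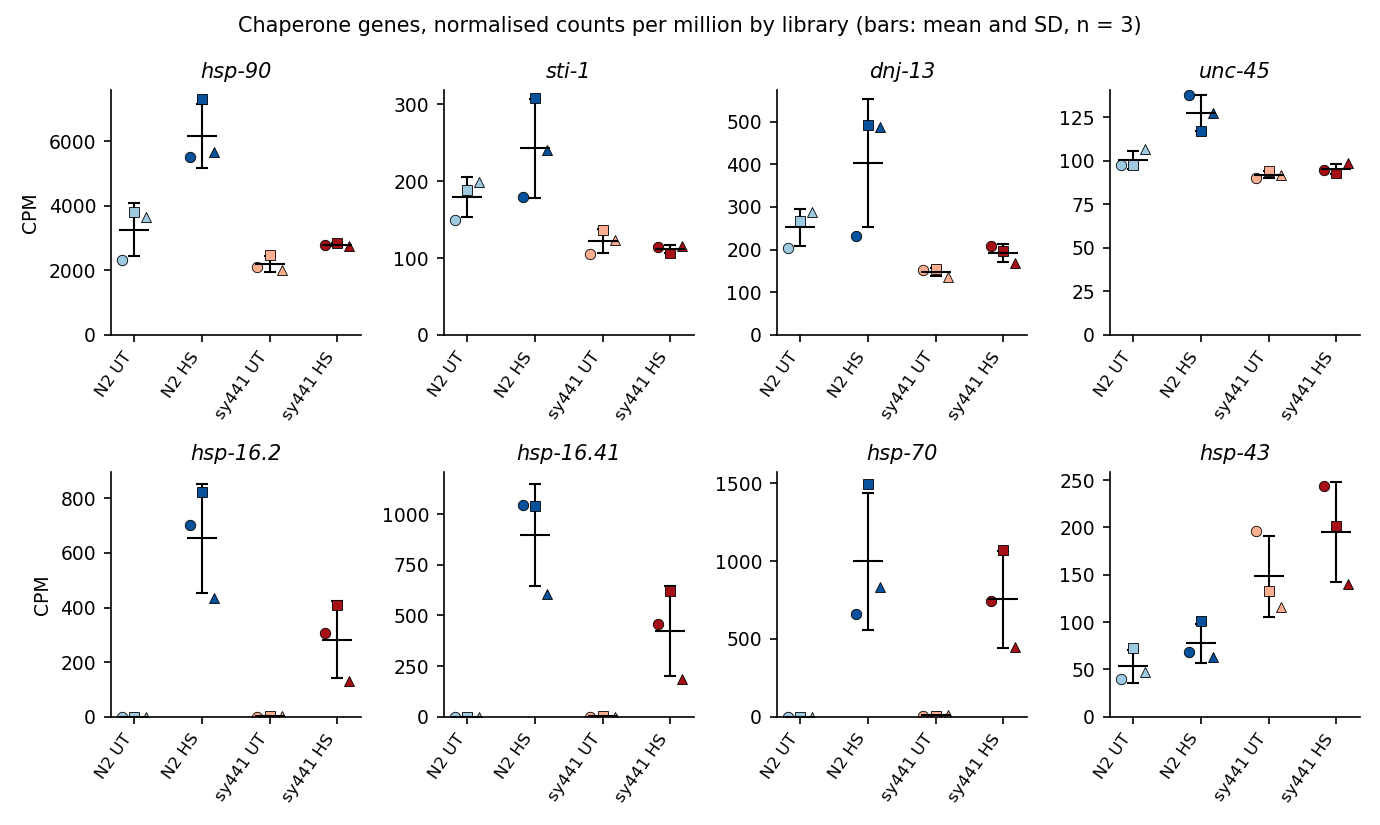
Levels of 8 chaperone genes in CPM (y axes, from 0) in the 12 libraries of N2 and *hsf-1(sy441)*, with circles, squares and triangles for replicates 1, 2 and 3 and bars for the mean and SD of 3 libraries. The *hsf-1(sy441)* HS libraries sit below the N2 HS libraries for *hsp-90*, *sti-1*, *dnj-13*, *unc-45* and *hsp-16.2*, overlap with them for *hsp-16.41* and *hsp-70*, and sit above them for *hsp-43*.

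No gene of the endoplasmic reticulum (ER) lists passed the test. *hsp-4*, the ER Hsp70 chaperone BiP, was at 1314, 1518 and 912 CPM in *hsf-1(sy441)* HS and at 656, 1964 and 882 CPM in N2 HS (log2(fold-change) 0.10, SE 0.38, adjusted P-value 0.908), so the N2 libraries spanned the mutant ones. *xbp-1*, the transcription factor of the ER unfolded protein response, was at 268, 324 and 297 CPM against 266, 220.4 and 193 CPM (log2(fold-change) 0.39, SE 0.15, adjusted P-value 0.112). *ire-1*, the sensor kinase that splices *xbp-1*, was at -0.16 (adjusted P-value 0.52), and *crt-1*, the ER chaperone calreticulin, was at 1208, 1222 and 1230.4 CPM against 938, 1036 and 987 CPM (log2(fold-change) 0.31, SE 0.14, adjusted P-value 0.195). For *crt-1* every mutant library lay above every N2 library, without a call. Neither edgeR nor DESeq2 called any of the 19 genes of that list, where they called 1.41% and 5.68% of all genes tested. At an unadjusted p under 0.05, 3 of the 19 were higher, against 13.9% of all genes tested, and the median was 0.11. Neither tool called any of 16 genes of ER-associated degradation, which had a median of -0.11. Of these 16, 2 were lower at an unadjusted p under 0.05, against 9.45% of all genes tested.

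A second set of lower genes consisted of genes that heat raised in the other strains and that reached a lower level in *hsf-1(sy441)* HS. The choice used contrasts between libraries other than the 6 compared, although those 6 still entered the count filter and the shared spread. Genes called as raised by heat in both *hsf-1FL* and *hsf-1CTD* were taken, a choice made after the data had been seen. There were 69 such genes, with a median log2(fold-change) between *hsf-1(sy441)* HS and N2 HS of -0.63 against 0.0095 over all genes. Of the 69, 48 had values below 0, against 6351 of all 12914 genes tested. Heat raised them by a median of 3.45 on the log2 scale in N2 and of 2.59 in *hsf-1(sy441)*, so that the median response was smaller in the mutant but not absent. In untreated libraries 44 of the 69 had values above 0, with a median of 0.33, against 6594 of all 12914 genes tested. The DEGs included 8 of the 69 as lower, against 0.372% of genes tested, and 2 as higher, against 1.04%. Without N2 HS replicate 2 the median was -0.15, and with each of the other 5 libraries left out in turn it stayed between -0.63 and -0.50. The lower calls among them numbered 2 without *hsf-1(sy441)* HS replicate 2, 3 without its replicate 1 or without N2 HS replicate 2, 4 without *hsf-1(sy441)* HS replicate 3, and 7 or 8 without the other N2 HS libraries.

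The gene *ttll-12* (WBGene00008405, chromosome II from 9338997 to 9341394), of the tubulin tyrosine ligase-like family, was at 145, 153 and 133 CPM in *hsf-1(sy441)* HS and at 501, 636 and 338 CPM in N2 HS (log2(fold-change) -1.78, SE 0.26, adjusted P-value 5.97e-04). Untreated levels overlapped, at 82.1, 100.1 and 86.4 CPM and 82.7, 91.1 and 89.2 CPM. The heat-shocked libraries of *hsf-1FL* had 778, 753 and 364 CPM and those of *hsf-1CTD* had 564, 681 and 327 CPM. All of these lay more than 2-fold above the mutant libraries.

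Next to it on the chromosome lies *scp-1* (WBGene00004744, chromosome II from 9334014 to 9338896), which codes for the homolog of the protein that escorts and activates the lipid regulator SREBP, and which was named after its values were seen. It was at 86.6, 75.5 and 78.4 CPM against 109.7, 304 and 302 CPM (log2(fold-change) -1.57, SE 0.24, adjusted P-value 7.30e-04), with N2 HS replicate 1 far below its replicates.

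*T25D10.1* was at 4.26, 4.87 and 5.38 CPM against 20.4, 36.4 and 19.3 CPM (log2(fold-change) -2.39, SE 0.41, adjusted P-value 0.00199), with heat responses of 2.92 in *hsf-1FL* and 3.505 in *hsf-1CTD* on the log2 scale. *lact-4*, a gene of the beta-lactamase domain family, was at 7.79, 6.50 and 13.3 CPM against 51.8, 39.2 and 19.8 CPM (log2(fold-change) -2.01, SE 0.41, adjusted P-value 0.00783), with heat responses of 3.00 in *hsf-1FL* and 2.88 in *hsf-1CTD*. The largest fall of all was in *ZK1010.8* (WBGene00014181, chromosome III from 12995727 to 13000670), at 1.38, 1.06 and 0.624 CPM against 4.49, 40.7 and 17.8 CPM (log2(fold-change) -4.35, SE 0.72, adjusted P-value 0.00149). Its heat response was 3.22 in *hsf-1FL* (adjusted P-value 0.0115) and 3.73 in *hsf-1CTD* (adjusted P-value 0.00411), of which the first was not a call. In these 3 genes the heat-shocked mutant libraries overlapped with the untreated ones of the mutant, while the N2 libraries spread widely in *ZK1010.8*. *W03F9.1*, named after its values were seen, had a mean of 114 CPM (SD 7.73, n = 3) in *hsf-1(sy441)* HS, all 3 libraries at 122 CPM or less, against 154, 440.2 and 309 CPM (log2(fold-change) -1.40, SE 0.22, adjusted P-value 0.0012).

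**Figure D3:**
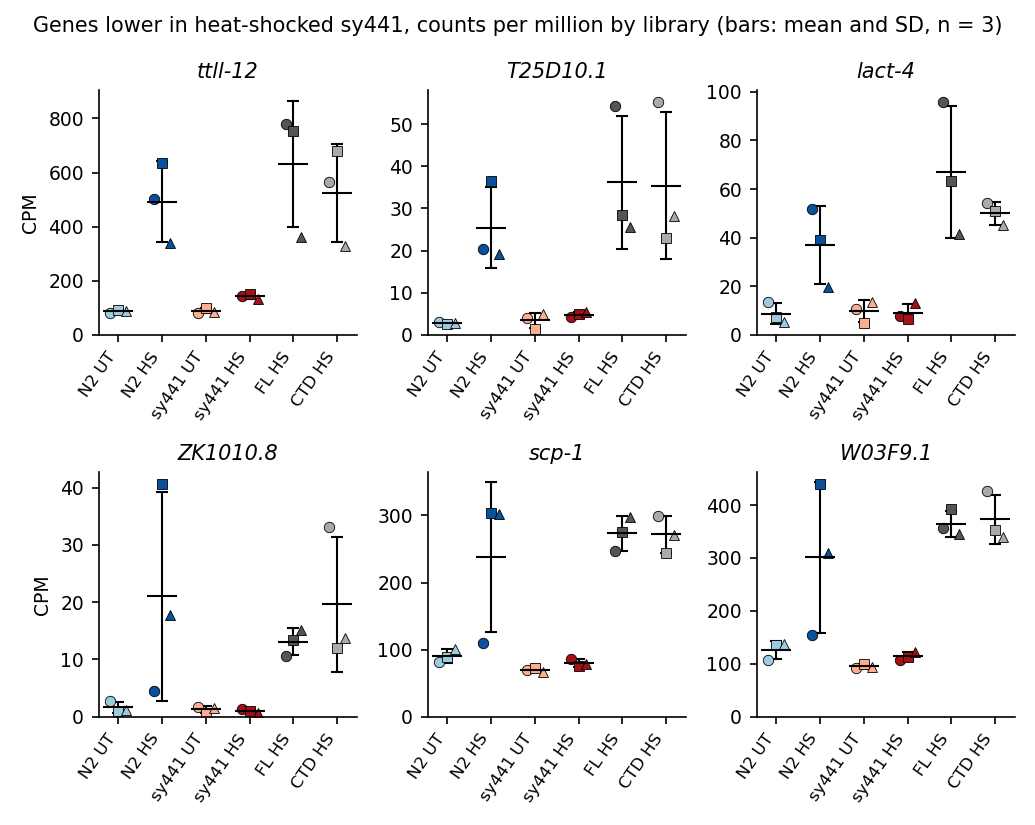
Levels in CPM (y axes, from 0) of 6 genes that were lower in *hsf-1(sy441)* HS, in 6 groups of 3 libraries, with circles, squares and triangles for replicates 1, 2 and 3 and bars for the mean and SD. Untreated libraries are shown for N2 and *hsf-1(sy441)* only. The heat-shocked libraries of N2, *hsf-1FL* and *hsf-1CTD* lie above these, except that N2 HS replicate 1 stays low for *ZK1010.8*, *scp-1* and *W03F9.1*. The *hsf-1(sy441)* HS libraries stay closer to the untreated level.

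Among the other falls, several were called or large without heat too. *F57A10.4* was at 2.95, 1.87 and 2.34 CPM against 10.8, 10.9 and 7.64 CPM (log2(fold-change) -2.03, SE 0.24, adjusted P-value 7.19e-05), and its untreated log2(fold-change) was -2.004. *Y71F9AL.8* was at 6.62, 5.61 and 5.69 CPM against 18.5, 17.01 and 18.9 CPM (log2(fold-change) -1.60, SE 0.21, adjusted P-value 2.37e-04), with -2.46 untreated. The F-box gene *fbxa-170*, the only one called by edgeR of 168 tested genes of its families, where DESeq2 called 4, was at -1.49 (adjusted P-value 0.00148) with -1.56 untreated. Of 70 genes of the mitochondrial ribosome 1 fell, *mrpl-34*, at -0.49 (adjusted P-value 0.00965) and -0.57 untreated. Near the detection limit, *dmsr-3*, a neuropeptide receptor gene, was at 0.131, 0 and 0.39 CPM against 1.68, 1.51 and 2.56 CPM (log2(fold-change) -3.41, SE 0.69, adjusted P-value 0.00744), and *B0416.10* was at -2.42 (adjusted P-value 0.00769) from 2.35 CPM or less. *F14D2.14* was at -2.01 (adjusted P-value 0.00692). Without heat, *dmsr-3*, *B0416.10* and *F14D2.14* were at -1.44, -0.79 and -1.12 (adjusted P-value 0.12, 0.253 and 0.0839 by edgeR). None of these was a call, and the untreated libraries of the strains overlapped for *B0416.10*.

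Actin and muscle genes were the list with the most members among the higher DEGs. Of 27 genes, 5 rose, none fell, and 16 were higher at an adjusted P-value under 0.05 (4.62% of all genes tested), as 16 were by DESeq2 at 0.01 (4.28%). By both of these measures the list of sperm genes had more members higher. The median log2(fold-change) was 0.97, and 23 of the 27 had values above 0. The troponin I gene *unc-27* (WBGene00006764, chromosome X from 8789456 to 8790621) was at 559.6, 661 and 1003 CPM in *hsf-1(sy441)* HS and at 331, 358 and 344 CPM in N2 HS (log2(fold-change) 1.11, SE 0.20, adjusted P-value 0.0035). The actin gene *act-4* was at 1343, 1505 and 2735 CPM against 618, 799 and 635 CPM (log2(fold-change) 1.44, SE 0.27, adjusted P-value 0.00424), and *pat-10*, the body wall troponin C, was at 716, 909 and 1649.6 CPM against 422, 596 and 500.5 CPM (log2(fold-change) 1.11, SE 0.22, adjusted P-value 0.00744). The actin genes are close paralogs, so their counts can share reads.

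The other 2 DEGs of the list were *unc-60* (cofilin), at 1.26 (adjusted P-value 0.00744), and *mlc-1* (a myosin regulatory light chain), at 1.38 (adjusted P-value 0.00965). The body wall myosin heavy chain *unc-54* was at 3428, 4210.1 and 8365 CPM against 2688, 1868 and 1536 CPM (log2(fold-change) 1.39, SE 0.35, adjusted P-value 0.0245), paramyosin *unc-15* at 1.13 (adjusted P-value 0.0277) and tropomyosin *lev-11* at 1.09 (adjusted P-value 0.0203). The genes below 0 were the pharyngeal myosins *myo-1* (-0.18) and *myo-2* (-0.38), the pharyngeal troponin C gene *tnc-2* (-0.0053) and *tnt-4* (-0.43), all without a call. Further DEGs outside the list code for proteins of muscle or of its basement membrane and, like the genes of this paragraph, were named after their values were seen. They were *dim-1* at 1.56 (adjusted P-value 0.00383), the thin filament protein *unc-87* at 1.17 (adjusted P-value 0.00587), kettin *ketn-1* at 1.63 (adjusted P-value 0.00744), paxillin *pxl-1* at 1.38 (adjusted P-value 3.37e-04) and *let-2*, a collagen of the basement membrane, at 1.44 (adjusted P-value 0.00944).

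Muscle transcripts were in excess without heat too, and the excess was largest in one library. The summed level of the 27 genes was 14243, 16466 and 30779 CPM in *hsf-1(sy441)* HS and 11591, 9815 and 8332 CPM in N2 HS. In untreated libraries it was 12952, 14773 and 21601 CPM against 9584, 8840.4 and 7958 CPM, with a median log2(fold-change) of 0.86. All 5 markers of body wall muscle had values above 0, with summed levels of 6103, 7236 and 14593 CPM against 5214, 3539 and 3021 CPM. All 5 of pharynx had values below 0, but this depended on single libraries. Without N2 HS replicate 1, 4 of the 5 pharynx markers were above 0 with a median of 0.70. Without *hsf-1(sy441)* HS replicate 2, 3 of the 5 were above 0. Without *hsf-1(sy441)* HS replicate 3 the median of the 27 genes was 0.58, 20 of the 27 genes had values above 0 and none was called by edgeR. None was called either without N2 HS replicate 2 or 3, while 1 was called without N2 HS replicate 1, 2 without *hsf-1(sy441)* HS replicate 2 and 9 without *hsf-1(sy441)* HS replicate 1.

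**Figure D4:**
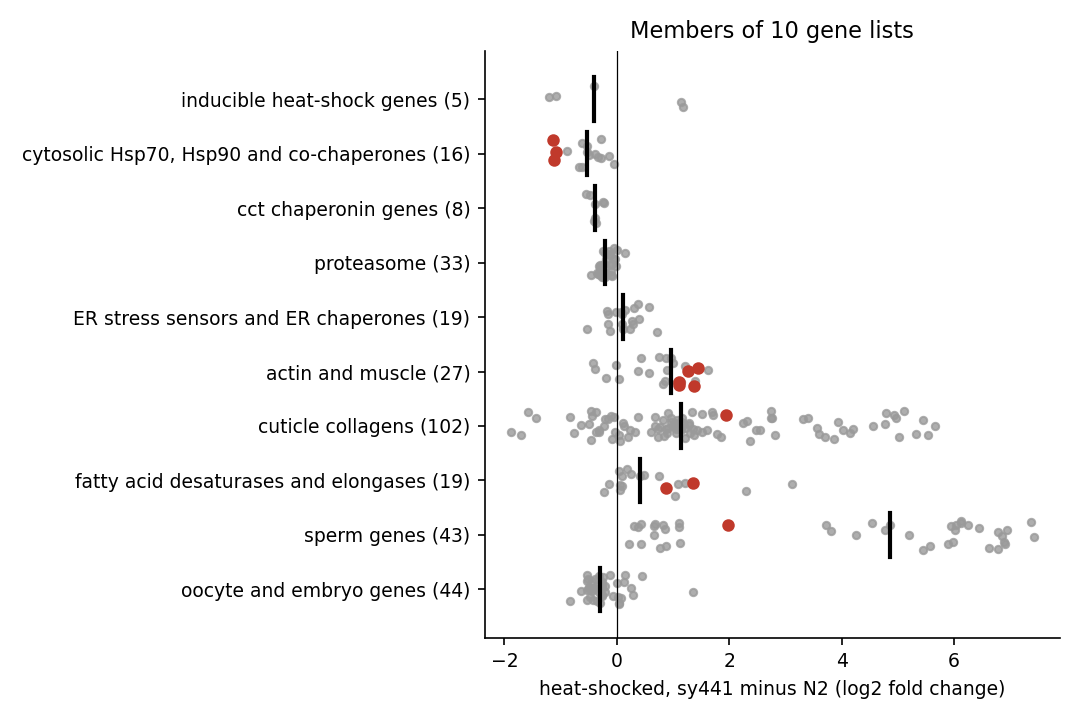
Each point is a tested member of 1 of 10 gene lists, with the number tested in parentheses and the log2(fold-change) of *hsf-1(sy441)* HS against N2 HS on the x axis. Red points passed an adjusted P-value under 0.01 and black bars mark the medians, which run from -0.53 for cytosolic chaperones to 0.97 for actin and muscle and 4.85 for sperm genes.

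The same *hsf-1(sy441)* HS replicate 3 also held the most transcripts of sperm and cuticle collagen genes and the fewest of oocyte and embryo genes. The 43 tested sperm genes had summed levels of 163, 290.3 and 1843 CPM in *hsf-1(sy441)* HS and of 135, 89.1 and 53.5 CPM in N2 HS. All 43 had values above 0, with a median of 4.85 (5.52 untreated), and 25 were higher at an adjusted P-value under 0.05. Of 95 sperm genes in the counts, only these 43 reached the count minimum. Members could pass it through the *hsf-1(sy441)* HS libraries where they were high. The sign count and the median are therefore not independent of that filter. DESeq2 called 26 of them at 0.01 and edgeR called 1, *spe-41*, which codes for a sperm calcium channel, at 10.7, 13.4 and 21.2 CPM against 2.60, 3.72 and 5.19 CPM (log2(fold-change) 1.98, SE 0.40, adjusted P-value 0.00744). Without replicate 3, only 33 sperm genes were tested. Their median was 1.65, 32 had values above 0, and no member was called by edgeR.

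The 102 tested cuticle collagens had summed levels of 21031, 33687 and 65679 CPM against 6904, 27163 and 21870 CPM. Their median was 1.14. DESeq2 called 15 and edgeR called 1, *col-111*, at 5.83, 6.99 and 9.52 CPM against 2.09, 1.31 and 2.39 CPM (log2(fold-change) 1.94, SE 0.40, adjusted P-value 0.00813). Without *hsf-1(sy441)* HS replicate 3 the median was 0.082, with 44 of 85 tested members above 0. The Argonaute genes of spermatogenesis were highest in the same library. *alg-3* was at 2.49, 7.23 and 75.7 CPM against 0.663, 0.138 and 0.057 CPM (6.54 (adjusted P-value 0.0171)) and *alg-4* at 1.05, 5.36 and 88.6 CPM against 0.817, 0.413 and 0.342 CPM (5.88 (adjusted P-value 0.0437)). Oocyte and embryo genes had summed levels of 20082, 19687 and 12907 CPM against 16437, 23787 and 27664 CPM. Their median was -0.29 over 44 tested, and 7 neuronal markers had one of -0.73, with no call in either list by edgeR. At an unadjusted p under 0.05, 9 and 3 genes were lower, against 9.45% of all genes tested. DESeq2 called 1 oocyte gene, *skr-2*, and no neuronal marker. Without N2 HS replicate 1 the medians of the oocyte and embryo genes and the neuronal markers were -0.45 and -0.16. The part of these markers in the other results was not tested. With the sperm genes left out of the fit, 180 genes were called.

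Lipid genes were higher in a few members that held up without replicate 3. *fat-2* (WBGene00001394, chromosome IV from 13323873 to 13326395), a fatty acid desaturase that makes linoleic acid, was at 702, 936 and 1139 CPM in *hsf-1(sy441)* HS and at 425, 317 and 339.6 CPM in N2 HS (log2(fold-change) 1.36, SE 0.21, adjusted P-value 8.37e-04). Its neighbour *fat-1* (WBGene00001393, chromosome IV from 13315644 to 13318811), the omega-3 desaturase, was at 513, 682 and 687 CPM against 322, 368 and 337 CPM (log2(fold-change) 0.87, SE 0.14, adjusted P-value 9.38e-04). Both were 2 of 19 tested desaturase and elongase genes, and both were called without *hsf-1(sy441)* HS replicate 3 as well, although the median of the 19 was then 0.040 in place of 0.42. The delta-9 desaturases, named after their values were seen, were not DEGs, while DESeq2 called *fat-5* and both fits with surrogate variables called *fat-7*. *fat-7* was at 111, 171 and 216 CPM against 5.92, 7.85 and 43.4 CPM (log2(fold-change) 3.12, SE 1.09, adjusted P-value 0.0912), *fat-5* was at 2.29 (adjusted P-value 0.0579) and *fat-6* at 1.09 (adjusted P-value 0.11).

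Single members of other lists rose as well. The histone genes *his-40*, at 8.78, 10.9 and 10.06 CPM against 1.23, 3.79 and 2.56 CPM (log2(fold-change) 1.97, SE 0.38, adjusted P-value 0.00512), and *his-41*, at 91.0, 124 and 336 CPM against 64.6, 67.3 and 57.3 CPM (log2(fold-change) 1.54, SE 0.33, adjusted P-value 0.00965), were the DEGs among 28 histone genes (DESeq2 called 3), which are near-identical in sequence. *ttm-1*, a zinc transporter gene, was at 0.85 (adjusted P-value 0.00707), the cytochrome P450 gene *cyp-14A1* at 2.64 (adjusted P-value 0.00767) and the glucuronosyltransferase gene *ugt-33* at 2.35 (adjusted P-value 0.00764). In *his-40*, *ttm-1* and *ugt-33* the untreated log2(fold-change) was smaller, at 0.36, 0.07 and 0.54, and the difference between treatments did not pass for any of them (adjusted P-value 1 each). Of 35 lists, 13 had at least 1 DEG and 22 had none by edgeR. Neither edgeR nor DESeq2 called any of 15 genes of the mitochondrial unfolded protein response (median 0.13), 29 autophagy genes (-0.15), 80 cytosolic ribosomal genes (0.16), 10 vitellogenin and yolk genes (0.23), 32 glutathione S-transferases (0.31), 7 superoxide dismutases and catalases (0.020) or 18 DAF-16 target genes (-0.017). At an unadjusted p under 0.05 these lists had 1, 5, 3, 0, 11, 2 and 5 genes, respectively, against 23.3% of all genes tested. Against 5.68% of all genes tested, DESeq2 called 5 of 73 C-type lectins, 3 of 73 lysozyme and antimicrobial peptide genes, 4 of 19 Argonautes, 3 of 61 lipolysis and fatty acid oxidation genes, 2 of 56 moulting genes and 1 each of the pals, neuropeptide and trehalose and glycerol lists, where edgeR called none. There, 14, 16, 9, 14, 10, 2, 6 and 3 genes had an unadjusted p under 0.05, against 23.3%.

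The largest rises came from genes that were close to absent in N2. Among the 134 higher genes, 38 had a mean below 1 CPM in N2 HS, and for 6 genes no N2 HS library had more than 3 counts. *C38D9.2* (WBGene00008010, chromosome V from 17567150 to 17571742) was at 435, 433 and 356 CPM in *hsf-1(sy441)* HS and at 0.817, 1.17 and 0.228 CPM in N2 HS (log2(fold-change) 9.12, SE 0.46, adjusted P-value 3.18e-10). Untreated animals showed the same, with 351, 313 and 338 CPM against 1.02, 0.331 and 0.274 CPM, and in *hsf-1FL* HS and *hsf-1CTD* HS no library exceeded 2.09 CPM. The adjacent noncoding gene *C38D9.13* on the same strand was at 22.5, 24.9 and 16.1 CPM with N2 HS at the floor, at least 119.9-fold higher when 3 counts per library are set as the N2 level.

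*ZK177.9* was at 7.14, 13 and 10.4 CPM and had no count in N2 HS, at least 57.6-fold higher by the same bound, and *C07G1.7* was at 12.58, 22.3 and 27.5 CPM, at least 118-fold higher. *F15D4.5* was at 294, 267 and 169 CPM against 5.82, 3.58 and 1.25 CPM (log2(fold-change) 6.09, SE 0.50, adjusted P-value 5.94e-07), and its neighbour *F15D4.6* at 20.3, 19.7 and 12.25 CPM against 0.613, 0.275 and 0.285 CPM (log2(fold-change) 5.42, SE 0.41, adjusted P-value 2.05e-07). *ZC15.3* was at 14.4, 9.75 and 7.96 CPM against 0.306, 0.0688 and 0.171 CPM (log2(fold-change) 5.77, SE 0.90, adjusted P-value 0.00127). In all of these the mutant libraries were above every one of the 9 other heat-shocked libraries.

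The rises of *Y106G6G.4* (2.16, 8.29 and 51.6 CPM against 0.408, 0.275 and 0.228 CPM) and of *dhs-26*, a short-chain dehydrogenase gene (6.55, 41.8 and 51.6 CPM against 0.306, 0.275 and 1.77 CPM), were lowest in replicate 1. Their log2(fold-change) was 6.04 (adjusted P-value 0.0096) and 5.38 (adjusted P-value 0.0057). *C55C3.6* was at 1.38, 0.975 and 3.67 CPM with no count in N2 HS, at least 11.3-fold higher, but *hsf-1FL* HS libraries held it too, at 3.48, 3.04 and 1.84 CPM. Its neighbour *C55C3.3*, named after its values were seen, was at 10.02, 9.098 and 19.3 CPM in *hsf-1(sy441)* HS, at 0.51, 0.275 and 1.43 CPM in N2 HS and at 18.2, 17.6 and 18.1 CPM in *hsf-1FL* HS, so its high level was shared with that line. Further rises were named after their values were seen. *C08F11.7* was at 5.89, 4.47 and 4.99 CPM against 0.357, 0.482 and 0.228 CPM (log2(fold-change) 3.83, SE 0.53, adjusted P-value 3.37e-04) and *C30G12.2* at 13.4, 59.0 and 118 CPM against 1.99, 2.27 and 6.33 CPM (log2(fold-change) 4.16, SE 0.85, adjusted P-value 0.00783). *tbb-6*, a beta-tubulin gene that stress induces, was at 136, 175 and 69.1 CPM against 10.8, 49.6 and 21.7 CPM (log2(fold-change) 2.21, SE 0.45, adjusted P-value 0.00744). Pseudogenes made up 17 of the 134 higher genes and 20 of the 182 DEGs (11% against 2.82% of genes tested).

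Several of these genes lay next to each other. How often tested genes at large have such neighbours was not computed, so the counts do not show a closer spacing of DEGs. Within 20 kb of one another and in the same direction, 40 DEGs formed 18 groups, among them *fat-1* with *fat-2*, *F15D4.5* with *F15D4.6*, *C38D9.2* with *C38D9.13*, the 3 genes *C55C3.7*, *C55C3.6* and *C55C3.3*, and, among the lower genes, *scp-1* with *ttll-12*.

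DEGs were dense around the *hsf-1* locus. Within 250 kb of *hsf-1* on chromosome I, 60 other genes were tested, and 10 of them were higher in *hsf-1(sy441)* HS and none lower, or 16.7% against the background of 1.41%. The median log2(fold-change) of the 60 genes was 1.02, and in 31 of them (51.7%, against 11.2% of all genes) the mutant libraries all lay above the N2 libraries. The share called was 12.8% of 86 genes within 500 kb, 6.12% of 196 within 1000 kb and 3.43% of 496 within 2000 kb, and it was 1.34% on the rest of chromosome I beyond 250 kb. These distances were chosen after the data had been seen, and the genes of one stretch are not independent of each other.

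The nearest called protein-coding genes were *tmem-189*, an enzyme of ether lipid synthesis, at 29.9, 38.7 and 53.97 CPM against 10.05, 12.9 and 12.4 CPM (log2(fold-change) 1.79, SE 0.33, adjusted P-value 0.00361), and *mag-1*, a core protein of the exon junction complex, at 136, 134 and 111 CPM against 64.0, 85.0 and 81.1 CPM (log2(fold-change) 0.73, SE 0.13, adjusted P-value 0.00401). *abhd-11.2* (WBGene00011029, chromosome I from 12181054 to 12183254), a hydrolase gene, was at 66.8, 72.5 and 55.9 CPM against 24.6, 29.9 and 31.5 CPM (log2(fold-change) 1.18, SE 0.12, adjusted P-value 9.39e-06). The mutant libraries agreed closely with each other, and so did the others. Its untreated values were 64.8, 64.1 and 61.0 CPM against 27.6, 27.2 and 28.9 CPM, and *hsf-1FL* HS had 26.4, 28.4 and 28.3 CPM and *hsf-1CTD* HS had 29.9, 35.6 and 34.5 CPM.

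The remaining ones were *F58D5.5* at 1.38 (adjusted P-value 0.00127), *F58D5.2* at 1.97 (adjusted P-value 0.00389), *Y47H10A.4* at 2.04 (adjusted P-value 0.00965), *nsph-1.2* at 1.12 (adjusted P-value 8.79e-04), *Y47H9C.8* at 0.84 (adjusted P-value 0.00899), *ksr-2*, a scaffold of Ras signalling, at 0.59 (adjusted P-value 0.00668) and the pseudogene WBGene00014915 at 0.91 (adjusted P-value 0.00529). Just outside, at 271 kb, *scrm-4*, of the phospholipid scramblase family, was at 26.9, 28.7 and 43.1 CPM against 2.40, 2.75 and 1.60 CPM (log2(fold-change) 3.87, SE 0.36, adjusted P-value 3.96e-06). All were named after their values were seen.

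In untreated libraries the median over the 60 genes was 0.66 and 6 of them were called. In the heat-shocked *hsf-1FL* and *hsf-1CTD* libraries set against the same N2 HS libraries, the medians were 0.023 and -0.021. With each of the 6 libraries left out in turn, the median of the stretch stayed between 0.81 and 0.99 and no gene was called lower, while 3 genes were called without *hsf-1(sy441)* HS replicate 2 and 5 without each of the N2 HS libraries. *hsf-1* itself was on the other side of 0, at -0.54.

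**Figure D5:**
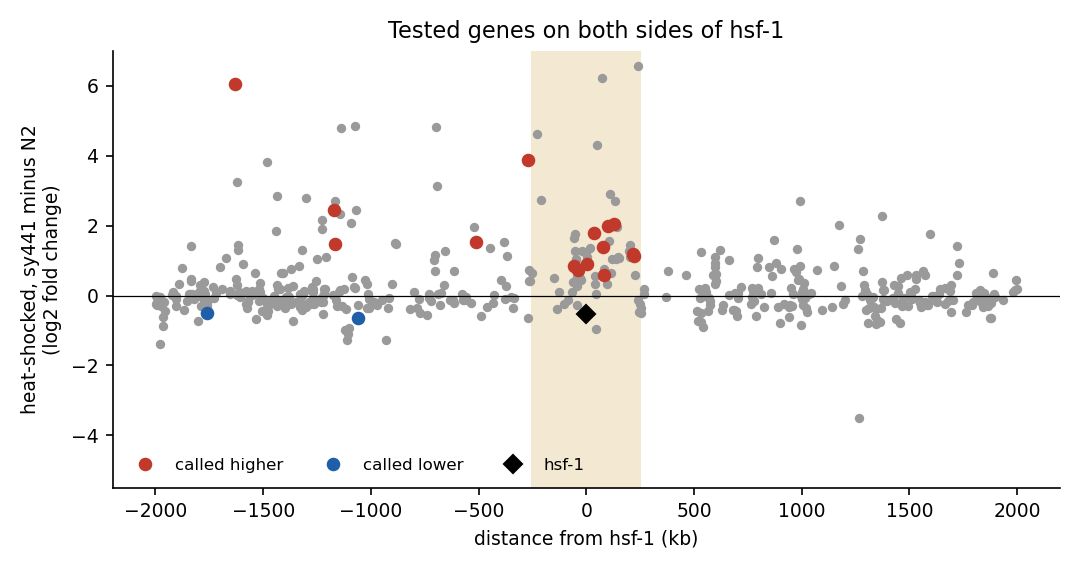
Tested genes within 2000 kb of *hsf-1*, with the distance from *hsf-1* in kb on the x axis (0 at the gene, the shaded band 250 kb to each side) and the log2(fold-change) of *hsf-1(sy441)* HS against N2 HS on the y axis. Red and blue points are DEGs that were higher or lower, and most points in the band lie above 0, with a median of 1.02.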

How the data were processed

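The authors sequenced mRNA of whole animals in 24 libraries, with 3 biological replicates for each of 4 genotypes untreated and heat-shocked. The authors trimmed reads with Trim Galore 0.6.7-1, aligned them to WBcel235 with STAR 2.7.10a and counted them on the genes of Ensembl release 107 with featureCounts of Subread 2.0.3. The deposited values are raw counts per gene, not normalised, with gene lengths as another column. Handling of strand and of reads shared by genes is not given in the sources used here. Gene names were matched by identifier (44113 of 46934).

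Genes that reached 10 counts in 3 or more of the 6 compared libraries were fitted with edgeR 4.0.16 (R 4.3.3) over all 24 libraries and 8 condition means, with the quasi-likelihood test, and an adjusted P-value under 0.01 was the threshold. The fit over 24 libraries shares 1 spread per gene among all groups. The authors used DESeq2 with the sva package but named neither its function nor a number of surrogate variables. DESeq2 with 3 surrogate variables, a number set here, was run as an alternative (DESeq2 1.42.0, sva 3.50.0). Other alternatives were other scalings, filters, library sets and each library left out. The script was tested on simulated counts. The 3 replicates of a group are biological according to the study's methods, and their counts differed by 15.6 to 148 times the sampling noise (chi-square per degree of freedom). Floors cover counting error only.

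The members, gene lists and tests were chosen with earlier results of these data known. Named by rule were *hsf-1*, the inducible heat-shock genes, *hsp-4*, *xbp-1*, *ire-1*, *crt-1*, the 10 largest rises and falls among DEGs with a mean of at least 1 CPM in the higher group and no overlap, and up to 3 DEGs per direction with the smallest p in every other list. The sequence of no gene is printed, as no genome was used here.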

Additional observations from a re-analysis of the deposited data

Results flagged for a closer look

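The pseudogene WBGene00012618 (chromosome V from 20506503 to 20509510) was lower in *hsf-1(sy441)* than in N2 after heat-shock and had a value above 0 without heat (adjusted P-value 0.0161 by edgeR). The difference between the heat-shocked and the untreated log2(fold-change) was -9.20. Its adjusted P-value by edgeR's quasi-likelihood test was 0.0256, the smallest of that test together with *hsp-70*. After heat-shock it was at 9.24, 10.97 and 5.85 CPM in *hsf-1(sy441)* and at 93.6, 60.04 and 22.7 CPM in N2. Untreated, it was at 0.532, 1.18 and 0.455 CPM in *hsf-1(sy441)* and had no count in the 3 N2 libraries. The fitted untreated value of 6.44, and with it the difference of -9.20, therefore depends on the prior count and is no measure of size. The pseudogene was also at 54.8, 47.4 and 25.2 CPM in heat-shocked *hsf-1FL* and at 56.2, 50.8 and 17.7 CPM in heat-shocked *hsf-1CTD*.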

How the results depend on the processing

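All 182 DEGs kept their direction in every alternative in which they were tested, while their number moved widely. Against 182 (134 higher and 48 lower), DESeq2 called 733 (553 and 180), edgeR with 3 surrogate variables 441 (290 and 151) and DESeq2 with them 905 (544 and 361), which held 182, 175 and 181 of the 182. An adjusted P-value under 0.05 gave 844 (596 and 248), no filter beyond 1 count 106 (78 and 28), and a log2(fold-change) of at least 1 left 136 (113 and 23). Fits of the 12 heat-shocked libraries gave 30 (28 and 2) and fits of the 6 libraries gave 2 (2 and 0), where 1506 genes had an unadjusted p under 0.05. Robust spread, other scalings and other filters gave 136 to 192. The higher share was 73.6% in the main analysis, 65.8% and 60.1% with surrogate variables and 53.2% without N2 HS replicate 1, where the median over all genes was 0.11. Leaving out 1 library gave 61 to 203 DEGs (52 to 161 higher and 9 to 95 lower), of which 60 to 197 had the same sign in untreated libraries.

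With the replicate number as a block, 272 genes were called over 24 libraries (205 higher and 67 lower), 262 with a block within treatment and 3 (3 and 0) in the 6 libraries, which held 178, 154 and 3 of the 182 DEGs. Same-numbered libraries of the strains had correlations of deviations of 0.092, 0.21 and 0.10. Differently numbered libraries had -0.19 to 0.10. Only *hsf-1(sy441)* HS replicate 1 correlated slightly better with another number, N2 HS replicate 2 (0.105 against 0.092). Whether same-numbered libraries shared a batch was not tested.

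Among 93 named genes, signs turned in 10 cases, all of uncalled genes. *hsp-4* was at -0.0074 and -0.0019 with surrogate variables in edgeR and DESeq2, and from -0.18 (without N2 HS replicate 1) to 0.70 with a library left out, also below 0 without *hsf-1(sy441)* HS replicate 2 (-0.039) and N2 HS replicate 3 (-0.068). Over the libraries left out, *ire-1* ran from -0.26 to 0.034, *F44E5.5* from -0.072 to 2.09 and *hsb-1* from -0.16 to 0.027, each turning without *hsf-1(sy441)* HS replicate 3, *hsp-70* ran from -0.72 to 0.0011 (without N2 HS replicate 2) and *hsp-12.6* from -2.42 to 0.39 (without N2 HS replicate 1). *hsp-16.2* passed with surrogate variables in edgeR (-1.39, adjusted P-value 0.0031). Of the other values of named genes, 1509 stayed on their side of the threshold, 429 lost a call and 45 gained one. The causes were not tested. Genes under about 1 CPM, including many of the largest rises, rest on few counts.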
